A study of Mus musculus with 6 samples.

Results

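Glycolysis turns glucose into pyruvate and, where pyruvate is reduced, into lactate. Hypoxia-inducible factor (HIF) is the transcription factor that raises most of the genes of this pathway when oxygen is scarce. Its alpha subunit is hydroxylated by oxygen-dependent prolyl hydroxylases, bound by the von Hippel-Lindau protein and degraded, so that it builds up when the hydroxylases slow down. Many carcinoma cells run glycolysis at a high rate in the presence of oxygen, and macrophages given inflammatory stimuli are also known for it. The set described here joins 37 genes, of which 19 encode glucose and lactate carriers, glycolytic enzymes and their regulators, and 18 are HIF targets outside glycolysis. Members were found by their deposited gene symbol, and a member's level was read from the brightest transcript cluster, a group of probes summarised as 1 gene, that carried its symbol and no other. By this rule 34 of the 37 were measured, 17 of each kind, among 23385 genes in all. Aldoa, Eno1 and Ankrd37 had only clusters shared with other genes.

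The cells were 4T1, a mouse mammary carcinoma line labelled triple negative, kept for 24 h with bone marrow-derived macrophages. The macrophages of 3 cultures were pro-inflammatory (PI) and those of the other 3 were anti-inflammatory (AI). The polarising agents and the oxygen level are not given in the labels. Every culture thus held the same line and macrophages derived from individual mice, and no array of 4T1 cells cultured alone was compared, so it cannot be told which co-culture moved a gene. Macrophages were removed with CD11b beads on a depletion column before RNA was extracted from the tumour fraction, and each culture gave 1 Affymetrix array. Levels are log2 values from RMA, the robust multi-array average, and each difference is PI minus AI.

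The 6 arrays correlated with each other at 0.987 to 0.990 over all transcript clusters. The line's keratin Krt8 was bright, at 10.66, 10.72 and 10.71 on the PI arrays and 10.77, 10.80 and 10.84 on the AI arrays. Of other epithelial markers, Krt18 was also bright, with means of 10.89 in PI and 11.11 in AI. Krt19 was dim, with means of 4.32 in PI and 4.27 in AI. Itgam, which encodes the CD11b used for depletion, lay between 2.92 and 3.07 on PI arrays and between 2.85 and 3.12 on AI arrays. Of 14 general macrophage transcripts, Cd68 and Cd14 were bright. Cd68 averaged 7.51 in PI and 7.48 in AI, and Cd14 averaged 8.23 in PI and 8.47 in AI. The rest of the 14 were dimmer, the brightest of them being Cd53, with means of 4.83 in PI and 4.58 in AI. Array levels of different genes share no scale, so these levels do not give the purity of the fraction. Over these 14 macrophage transcripts the mean level was 4.41 to 4.51 on PI arrays and 4.33 to 4.45 on AI arrays, so these means overlapped. Single genes among the 14 differed both ways. Mpeg1 had a value of 0.58 with all PI arrays higher (limma adjusted p = 0.476). Cd14 had a value of -0.23 with all PI arrays lower (limma adjusted p = 0.662). Over the whole list of 16, which adds Nos2 and Arg1, the mean level was 4.60 to 4.69 on PI arrays and 4.43 to 4.57 on AI arrays, and the groups did not overlap. Of the 16, 12 had values above 0 and 4 below, against 52.7% of all genes below 0. Nos2 encodes the inducible nitric oxide synthase and is a HIF target in macrophages. Its levels were 7.26, 7.43 and 7.62 in PI and 6.49, 6.45 and 6.53 in AI. Nos2 was higher in PI than in AI by 0.95 (limma adjusted p = 0.0319). Arg1, which encodes arginase, had a value of 0.32 (limma adjusted p = 0.699). In RNA from a whole cell fraction, fewer cells of a type and less RNA per cell cannot be told apart.

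HIF binds a core written as ACGTG or GCGTG. Both strands of RefSeq promoter windows (assembly GRCm38.p6, 250 bases before to 50 after each annotated start) were searched for these letters, and 35 of the 37 members had a window, all but Ndrg1 and Plod2. ACGTG was present in 12 of 19 glycolysis genes and 13 of 16 HIF targets outside glycolysis, or 63.2% and 81.3%, against 21.8% of all 27025 genes with a window and 23.2% of protein-coding genes. Counted by window, it was in 28 of 53 member windows (52.8%), against 19.6% of all windows. GCGTG was in 60.4% of member windows and 32.4% of all windows. The element contains the dinucleotide CG, of which member windows held a median of 24, against 7 in all windows and 13 in those of protein-coding genes, and its share was not adjusted for this. Below are stretches around an ACGTG match that precedes a listed start, with matches on either strand in capitals (CACGT is the match read on the other strand, and CACGTG holds both). The first 4 belong to Pfkfb3, Hilpda, Ero1l and P4ha2, which had values below 0. The last 4 show an oxygen sensor, a mitophagy receptor and 2 glycolytic enzymes. Of these, Bnip3, Ldha and Pgk1 also had values below 0. The stretches shown are a selection of those found. Slc16a3, Mxi1, Hk2, Ddit4 and Pkm also had such a match and had values above 0. Other members with a match that are not shown had values below 0. A link between a match and the difference of a member was not tested.
Pfkfb3 (chr2:11553960-11554014, minus strand): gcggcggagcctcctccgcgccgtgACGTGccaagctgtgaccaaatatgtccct
Hilpda (chr6:29272571-29272599, plus strand): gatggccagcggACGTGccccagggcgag
Ero1l (chr14:45318606-45318660, minus strand): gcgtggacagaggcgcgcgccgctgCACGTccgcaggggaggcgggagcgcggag
P4ha2 (chr11:54100821-54100875, plus strand): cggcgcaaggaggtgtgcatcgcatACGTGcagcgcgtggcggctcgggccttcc
Egln1 (chr8:124949293-124949347, minus strand): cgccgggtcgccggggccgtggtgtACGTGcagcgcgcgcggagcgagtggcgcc
Bnip3 (chr7:138909584-138909638, minus strand): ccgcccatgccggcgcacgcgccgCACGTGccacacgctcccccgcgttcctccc
Ldha (chr7:46845745-46845799, plus strand): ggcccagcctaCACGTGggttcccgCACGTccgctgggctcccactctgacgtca
Pgk1 (chrX:106186944-106186998, plus strand): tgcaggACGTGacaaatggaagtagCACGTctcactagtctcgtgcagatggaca
The first base of the match lay 60 bases before the start in Pfkfb3, 43 in Hilpda, 63 in Ero1l, 78 in P4ha2, 68 in Egln1, 107 in Bnip3, 34 in Ldha and 131 in Pgk1. The Hilpda stretch precedes the second of its listed starts. Pfkfb3 is shown at its outermost start, and another match, not printed, lay 52 bases before a second listed start. Gpi1, Tpi1, Eno1, Eno2, Pfkl, Pfkp and Pfkfb4 had no ACGTG in their windows. Of the HIF targets outside glycolysis, Pdk1, Kdm3a and Adm had none either. A match describes the letters in the window and does not show that the factor binds there.

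No glycolysis gene or HIF target of the set passed the test between 4T1 cells from the PI and AI co-cultures, and most differences were bounded within 1.5-fold. With the limma fit over all genes, 0 of 34 members passed an adjusted p of 0.05, against 0.0727% of all genes tested, all of those higher in PI. The smallest adjusted p of a member was 0.662, for Pfkfb3. At an unadjusted p under 0.05, 1 member was lower in PI and 0 were higher, against 3.31% and 4.05% of all genes, and a limma fit whose variance followed intensity, with outliers downweighted, also called 0 members. Differences were small, as they were for most genes: 32 of 34 lay within 0.2 of 0 on the log2 scale, against 19422 of all 23385 genes. The median size was 0.08, against 0.09 for all genes. For 32 of the 34 the 95% interval lay within 1.5-fold in either direction, a share that was not counted over all genes. The exceptions were Pfkfb3, whose interval reached down to 0.637-fold, and Slc16a3, whose interval reached up to 1.62-fold.

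**Figure D1:**
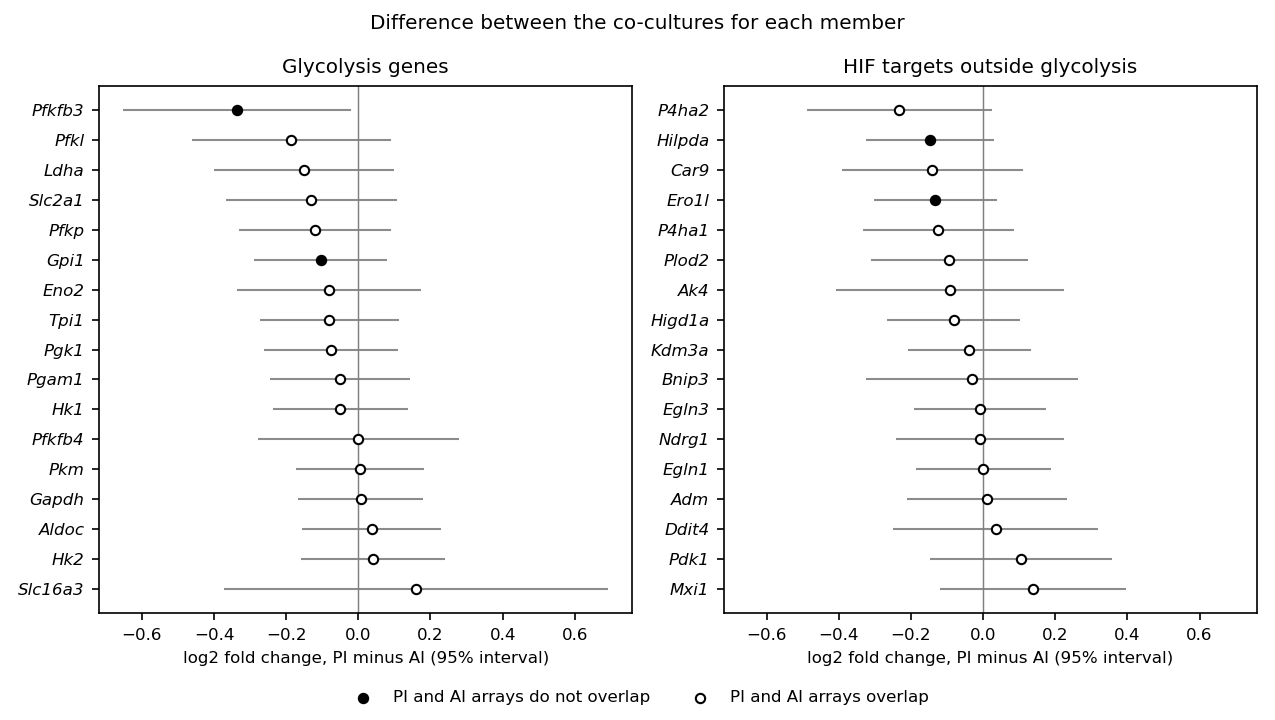
Log2 fold change (PI minus AI) of the 17 measured glycolysis genes (left) and 17 HIF targets outside glycolysis (right), with 95% limma intervals as bars; filled points mark members with all 3 PI arrays on one side of the 3 AI arrays. All intervals but that of Pfkfb3 include 0, and the 4 filled points, Pfkfb3, Gpi1, Hilpda and Ero1l, all lie below 0.

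The arrays of the 2 co-cultures were apart for 4 of the 34 members, all of them lower in PI. This is 11.8% of the members, against 13.2% of all genes whose arrays did not overlap, and against 7.32% of all genes for the lower direction alone. No member had all PI arrays above the AI arrays, against 5.85% of all genes. The 4 were the regulator Pfkfb3, the isomerase Gpi1, the lipid droplet protein gene Hilpda and the oxidase Ero1l. In the authors' deposited table, Ero1l and Hilpda were the members with a p-value under 0.05, that is 2 of 34, against 7.00% of all genes. This count is not above the share over all genes. In the authors' deposited table the p-values were 0.00755 for Ero1l and 0.0194 for Hilpda, and the q-values 0.662 and 0.720.

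Glucose entry came first in the pathway. Slc2a1, which encodes the glucose transporter GLUT1, had levels of 9.48, 9.70 and 9.79 in PI and 9.71, 9.82 and 9.83 in AI. The lowest value was that of PI replicate 1, and the other PI arrays lay among or close to the AI arrays. Its difference was -0.13 (95% interval -0.37 to 0.11; limma adjusted p = 0.817). A second Slc2a1 cluster differed by -0.19. Hk1, a hexokinase that traps glucose in the cell as its phosphate, averaged 7.49 ± 0.01 in PI and 7.54 ± 0.09 in AI (SD, n = 3 each), and Hk2, the hexokinase isoform raised in many tumours and by HIF, averaged 8.26 ± 0.11 in PI and 8.22 ± 0.03 in AI (SD, n = 3 each). The hexokinases thus lay on opposite sides of 0, at -0.05 for Hk1 and 0.04 for Hk2, both within the spread of their arrays.

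Gpi1, which turns glucose 6-phosphate into fructose 6-phosphate, had levels of 10.87, 11.02 and 11.00 in PI and 11.05, 11.05 and 11.10 in AI. Every PI array was below every AI array, by as little as 0.03 at the nearest pair, and the difference of -0.10 did not pass (limma adjusted p = 0.809). A further Gpi1 cluster, in which the arrays overlapped, differed by -0.04. The next step, the committed step of glycolysis, is carried out by phosphofructokinase. Its liver-type subunit Pfkl had levels of 8.64, 8.93 and 9.08 in PI, against 9.08, 9.10 and 9.02 in AI. PI replicate 1 stood apart from the other 5 arrays here, and the difference of -0.19 did not pass (limma adjusted p = 0.776). The platelet-type subunit Pfkp had levels of 8.90, 9.08 and 9.06 in PI and 9.21, 9.16 and 9.03 in AI, a difference of -0.12 (limma adjusted p = 0.808).

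Pfkfb3 had the largest difference of all 34 members. It encodes the main kinase that makes fructose 2,6-bisphosphate, the activator of phosphofructokinase, and is itself a HIF target. Its levels were 6.02, 6.50 and 6.34 in PI and 6.53, 6.57 and 6.76 in AI. The groups did not overlap, but the highest PI array and the lowest AI array were 0.03 apart. The difference was -0.34, or 0.792-fold with a 95% interval of 0.637 to 0.986, and it did not pass (limma adjusted p = 0.662). Without PI replicate 1 it was -0.20. Its relative Pfkfb4 had levels of 5.10, 4.91 and 4.68 in PI and 4.97, 4.79 and 4.93 in AI, a difference of 0.00. The difference between the 2 relatives was not tested.

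**Figure D2:**
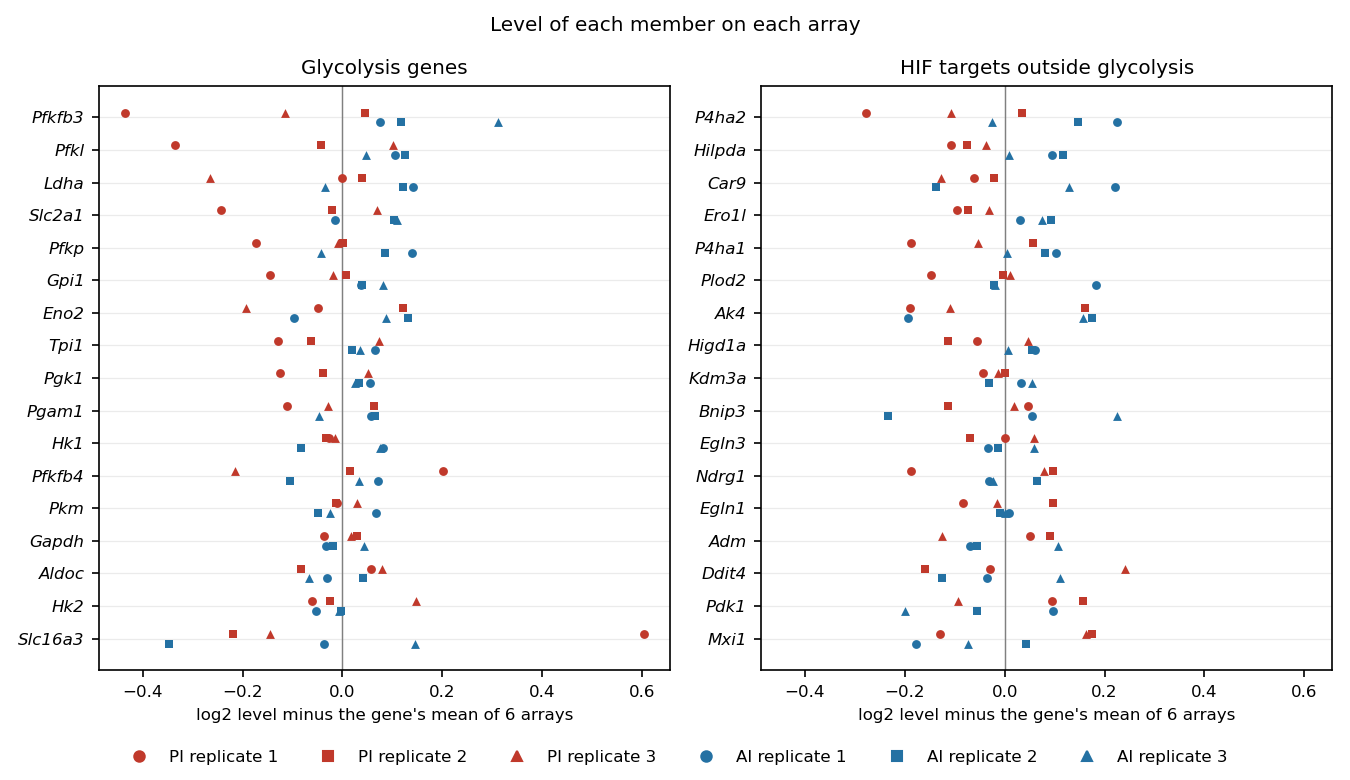
Level of each measured member on each array, as the log2 level minus the gene's mean of the 6 arrays, with PI arrays in red drawn just above AI arrays in blue and the replicate shown by the shape. PI replicate 1 (red circles) is the lowest of the 6 arrays for 10 of 17 glycolysis genes and 8 of 17 HIF targets, while Slc16a3 has its highest value there.

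The later steps of glycolysis split the sugar and yield ATP. Aldoc, an aldolase, averaged 4.89 ± 0.09 in PI and 4.85 ± 0.06 in AI (SD, n = 3 each). Tpi1, which interconverts the triose phosphates, had levels of 11.11, 11.18 and 11.31 in PI and 11.31, 11.26 and 11.28 in AI, a difference of -0.08. Pgk1, the first ATP-yielding enzyme, had levels of 11.40, 11.49 and 11.58 in PI and 11.58, 11.56 and 11.55 in AI, also -0.08. In both genes PI replicate 1 was lowest, and PI replicate 3 was at or near the top of the AI range. Pgam1, a phosphoglycerate mutase, averaged 10.50 ± 0.09 in PI and 10.55 ± 0.06 in AI (SD, n = 3 each). Eno2, the neuronal enolase that tumours also express, differed by -0.08.

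Gapdh and Pkm gave signals near the top of the array's scale. Gapdh, the dehydrogenase often used as a reference gene, had levels of 12.64, 12.71 and 12.69 in PI and 12.65, 12.66 and 12.72 in AI, a difference of 0.01 (95% interval -0.17 to 0.18). Pkm, which encodes the muscle pyruvate kinases PKM1 and PKM2 of the last ATP-yielding step, had levels of 12.08, 12.08 and 12.12 in PI and 12.16, 12.04 and 12.06 in AI, a difference of 0.00 (95% interval -0.17 to 0.18). Another bright cluster of Gapdh alone differed by 0.03 and a dim one by 0.15, and in both the arrays overlapped. With the clusters of Gapdh alone averaged, its value was 0.06. A further 7 bright clusters annotated to Gapdh together with Gm12070 differed by -0.04 to 0.02, and their signal cannot be assigned to either gene.

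Products leave through lactate dehydrogenase and the lactate carriers. Ldha, the lactate dehydrogenase subunit that HIF raises, had levels of 4.74, 4.78 and 4.47 in PI, against 4.88, 4.86 and 4.71 in AI. The difference was -0.15 (limma adjusted p = 0.797), on a signal at percentile 50.7 of all genes by level. Which probes this cluster holds was not checked here, so its value may not report the Ldha transcript. Slc16a3, the lactate exporter MCT4, had levels of 4.64, 3.82 and 3.89 in PI and 4.00, 3.69 and 4.18 in AI. Its value of 0.16 was the highest of any member and rested on PI replicate 1, without which it was -0.10. A cluster shared by Slc16a3 and Csnk1d averaged 8.90 ± 0.06 in PI and 8.91 ± 0.04 in AI (SD, n = 3 each), and its signal cannot be assigned to either gene.

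For the glycolysis members without a cluster of their own, only shared signals exist. The cluster of Aldoa, the main aldolase of most tissues, and its retrogene Aldoart1 had levels of 5.05, 4.85 and 5.05 in PI and 5.11, 5.23 and 5.21 in AI. The PI arrays lay below the AI arrays, with means apart by 0.20. Of 2 clusters of the enolase Eno1 and Gm5506, the brighter averaged 6.15 ± 0.10 in PI and 6.26 ± 0.09 in AI (SD, n = 3 each). These clusters were in no test and in no count of members.

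Among HIF targets outside glycolysis, the prolyl hydroxylases that shut HIF off again had differences close to 0. Egln1, which encodes PHD2, the main oxygen sensor acting on HIF, had levels of 8.51, 8.69 and 8.58 in PI and 8.60, 8.59 and 8.60 in AI. The AI arrays lay within the PI range, and the difference was 0.00 (95% interval -0.19 to 0.19). Egln3, the strongly HIF-induced PHD3, had levels of 9.16, 9.09 and 9.22 in PI and 9.13, 9.15 and 9.22 in AI, a difference of -0.01 (95% interval -0.19 to 0.17). Kdm3a, a histone demethylase induced by hypoxia, differed by -0.04.

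The enzymes that prepare collagen and disulphide bonds in the endoplasmic reticulum all had values below 0, with a median of -0.13 over the 4. P4ha2, a catalytic subunit of collagen prolyl 4-hydroxylase, had levels of 6.56, 6.87 and 6.73 in PI and 7.06, 6.99 and 6.81 in AI. PI replicate 2 overlapped with AI replicate 3, and the difference of -0.23 did not pass (limma adjusted p = 0.699). P4ha1, the other catalytic subunit, differed by -0.12, and Plod2, which hydroxylates collagen lysines, by -0.09. Ero1l (Ero1a in current nomenclature), the oxidase that passes electrons from disulphide formation to oxygen, had levels of 10.43, 10.45 and 10.49 in PI and 10.55, 10.61 and 10.60 in AI. The groups were apart with little spread inside either, yet the difference was 0.912-fold (95% interval 0.811 to 1.03; limma adjusted p = 0.743). A second Ero1l cluster overlapped between groups and differed by -0.02, so the 2 clusters disagree.

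Members tied to mitochondria and energy gave no common direction. Bnip3, a mitophagy receptor, had levels of 7.63, 7.47 and 7.60 in PI and 7.64, 7.35 and 7.81 in AI, a difference of -0.03 with most of the spread among the AI arrays. Higd1a, a mitochondrial protein of hypoxia, differed by -0.08, and Ak4, a mitochondrial adenylate kinase, by -0.09. Pdk1 encodes a kinase that restrains pyruvate dehydrogenase by phosphorylating it. Its levels were 7.89, 7.96 and 7.71 in PI and 7.90, 7.74 and 7.60 in AI, a value of 0.11 (limma adjusted p = 0.859).

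The remaining targets concern stress, growth, secretion and lipid storage. Mxi1, an antagonist of MYC, had levels of 10.17, 10.48 and 10.46 in PI and 10.13, 10.35 and 10.23 in AI, a value of 0.14 (limma adjusted p = 0.823). A second Mxi1 cluster lay on the other side of 0, at -0.06, and with the clusters averaged the value was 0.04, so the direction is not settled. Ndrg1, a stress gene used as a marker of hypoxia, differed by -0.01 on its brightest cluster. On its other cluster it averaged 7.37 ± 0.27 in PI and 7.69 ± 0.07 in AI (SD, n = 3 each), with the PI arrays all below the AI arrays, so here too the clusters disagree. Ddit4, an inhibitor of mTORC1, had a value of 0.03. Hilpda, which blocks lipid breakdown at the droplet, had levels of 7.34, 7.37 and 7.41 in PI, against 7.54, 7.57 and 7.46 in AI, a difference of -0.15 or 0.903-fold (95% interval 0.799 to 1.02; limma adjusted p = 0.728). The groups were apart by 0.05 at the nearest pair. Adm, the vasodilator peptide adrenomedullin, and Car9, the surface carbonic anhydrase IX often used as a hypoxia marker, were dim, at percentiles 43.9 and 45.9 of all genes, with values of 0.01 and -0.14. A brighter cluster shared by Car9 and Gm12454 averaged 6.01 ± 0.17 in PI and 6.05 ± 0.21 in AI (SD, n = 3 each). Its signal cannot be assigned to either gene. The cluster shared by Ankrd37 and Lrp2bp averaged 5.48 ± 0.16 in PI and 5.59 ± 0.14 in AI (SD, n = 3 each).

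Glycolysis genes and HIF targets outside glycolysis were then set side by side. The median log2 fold change was -0.076 over the 17 glycolysis genes and -0.038 over the 17 HIF targets, beside -0.008 over all genes. Values were below 0 for 11 of the 17 glycolysis genes (64.7%) and 12 of the 17 HIF targets (70.6%), against 52.7% of all genes. Most members are bright. Among genes above the median level the share below 0 was 61.6%, close to that of the glycolysis genes, and the median was -0.03. With the arrays centred on their medians, values below 0 numbered 30 of the 34 members, or 88.2%, and 64.3% of all genes. In each set 2 of 17 members had arrays that did not overlap. The medians differed by 0.038, and when a gene's clusters were averaged they differed by less than 0.001. No test was made of this difference, since the members had been chosen with earlier results known.

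**Figure D3:**
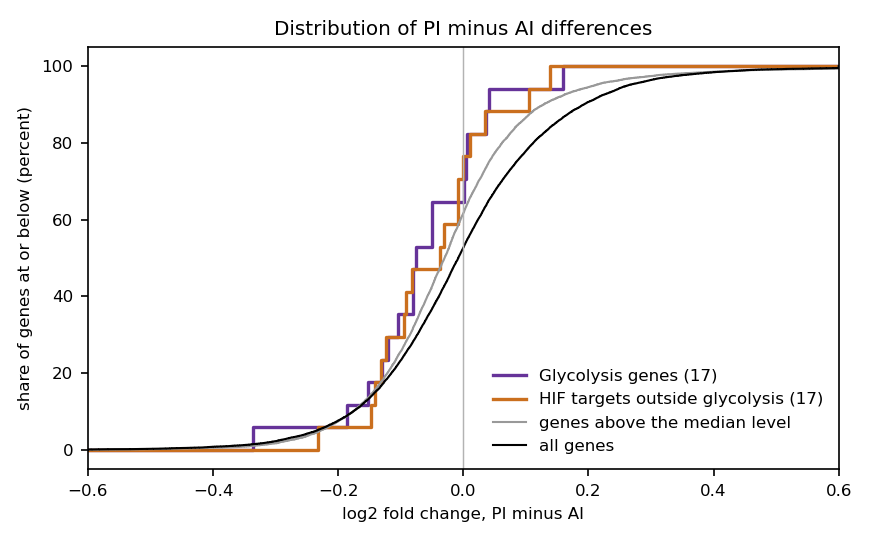
Cumulative share of genes (percent) at or below each log2 fold change (PI minus AI) for the 17 glycolysis genes, the 17 HIF targets outside glycolysis, genes above the median level, and all 23385 genes. At 0 the curves stand at 64.7% for the glycolysis genes and 70.6% for the HIF targets. They stand at 52.7% for all genes and 61.6% for genes above the median level. Each set has only 17 genes, and the glycolysis share is close to that of genes above the median level.

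Array by array, the deviations of the members were uneven. For the glycolysis genes the median deviation from each gene's mean was -0.062, -0.013 and -0.009 on the PI arrays and 0.057, 0.039 and 0.035 on the AI arrays. For the HIF targets it was -0.083, 0.000 and -0.015 on the PI arrays and 0.034, -0.008 and 0.008 on the AI arrays. The glycolysis medians of the PI arrays thus lay below those of the AI arrays, while the HIF target medians overlapped. Medians per array were not taken for other genes as bright as the members. PI replicate 1 had the lowest value of the 6 arrays for 18 of the 34 members, against 20.6% of all genes and 27.6% of genes above the median level. Without it the glycolysis median was -0.049 and the HIF target median -0.026. Epithelial markers of the line also had values below 0, in 6 of 8 with a median of -0.17, and 0 passed limma's adjusted threshold. Their mean level was 6.91 to 7.08 on PI arrays and 7.13 to 7.19 on AI arrays, without overlap. Their lowest array was PI replicate 3 for 5 of the 8 and PI replicate 1 for 3. Among them, Krt14 differed by -0.41 (limma adjusted p = 0.616) and Epcam by -0.19 (limma adjusted p = 0.701). The part of these markers, and of the macrophage transcripts, in the members' values was not tested.

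**Figure D4:**
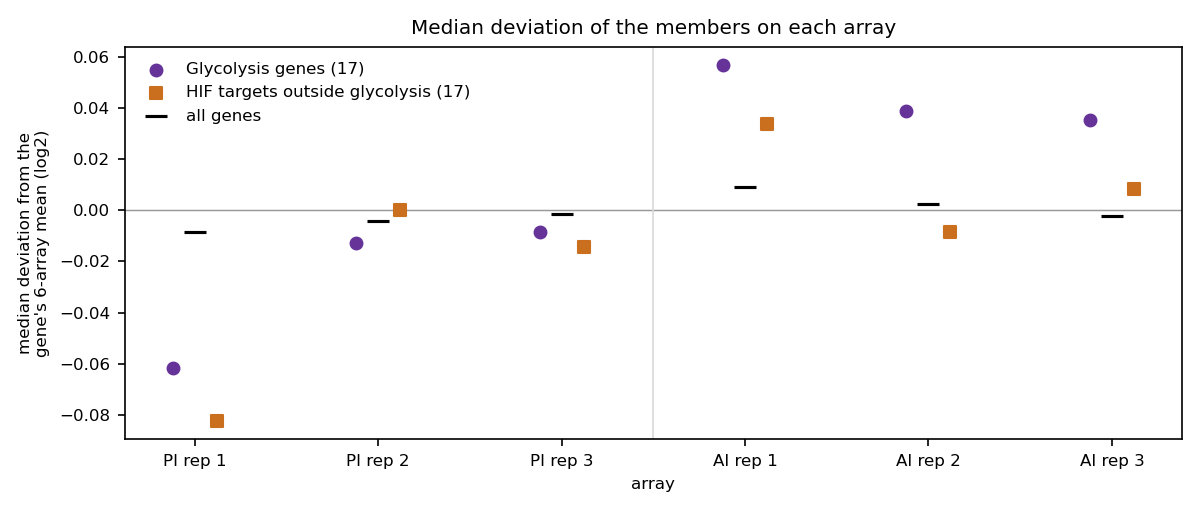
Median deviation (log2) from each gene's mean of the 6 arrays, per array, for the 17 glycolysis genes (circles), the 17 HIF targets outside glycolysis (squares) and all genes (bars), with PI arrays left of AI arrays. Both sets are lowest on PI replicate 1, and only the glycolysis medians are separate between PI and AI.

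Genes that act beside the members gave small differences too. Of 11 genes of the HIF machinery, 0 passed limma's adjusted threshold and 0 an unadjusted p under 0.05, with a median of -0.02. Hif1a, the alpha subunit present in most cells, had levels of 10.38, 10.42 and 10.33 in PI and 10.40, 10.33 and 10.34 in AI, a difference of 0.02 (95% interval -0.15 to 0.19). HIF-1 alpha is regulated chiefly through its protein, which was not measured. Epas1, the HIF-2 alpha gene, differed by -0.14. The machinery genes with the smallest p were Hif1an, the asparaginyl hydroxylase that silences HIF, at -0.21 (limma adjusted p = 0.832) and Hif3a at -0.12 (limma adjusted p = 0.834).

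A list of 30 other HIF targets gave 27 measured genes, 17 of them below 0, with a median of -0.04. By limma 0 passed the adjusted threshold, and 1 was lower at an unadjusted p under 0.05. Vegfa, the main angiogenic factor, had levels of 8.36, 8.31 and 8.44 in PI and 8.44, 8.32 and 8.48 in AI, a difference of -0.04. Car12, a relative of Car9, had the smallest p, with levels of 7.36, 7.32 and 7.15 in PI and 7.47, 7.46 and 7.66 in AI. Its PI arrays were all lower, and the difference of -0.26 did not pass (limma adjusted p = 0.657). Stc1, the secreted stanniocalcin 1, differed by -0.30 (limma adjusted p = 0.704).

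Of 14 other glycolytic isoenzymes and carriers, 7 were below 0, with a median of 0.00. By limma 0 passed the adjusted threshold, and 1 was lower at an unadjusted p under 0.05. Slc16a1, the lactate carrier MCT1, had levels of 8.77, 8.72 and 8.63 in PI and 8.98, 8.98 and 8.91 in AI. The 3 PI arrays were all lower, and the difference of -0.25, with a 95% interval of -0.43 to -0.07, did not pass (limma adjusted p = 0.584). Pgam2, the muscle mutase, differed by -0.27 (limma adjusted p = 0.688), and Ldhb, the lactate dehydrogenase subunit of oxidative tissues, by -0.01. Of 14 genes for the fate of pyruvate, 7 were below 0, with a median of -0.01, and by limma 0 passed the adjusted threshold and 0 an unadjusted p under 0.05. Mpc1, a subunit of the mitochondrial pyruvate carrier, differed by -0.29 (limma adjusted p = 0.680), and Pdha1, a subunit of pyruvate dehydrogenase, by -0.14 (limma adjusted p = 0.752).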

How the data were processed

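Gene expression of the 4T1 fraction was measured on 6 Affymetrix arrays, grouped and numbered by their titles. The deposited values are log2 levels per transcript cluster, made with Affymetrix Expression Console and RMA per the submitters' processing notes, which give no versions. The array's genome build was not given in the sources used here. The 2 deposited tables held the same values for 41345 clusters, 24724 of them with 1 symbol. One table adds a p-value and a q-value computed by the authors, and a deposited fold that is a ratio of AI over PI within 0.001 for all 41345 clusters. Unused columns of per-sample values numbered 0.

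Symbols were updated through Entrez identifiers with RefSeq (GRCm38.p6), which held those of 23652 clusters. Groups were compared with limma 3.58.1 in R 4.3.3 (lmFit and eBayes, group as the only term, two-sided, Benjamini-Hochberg over 23385 genes, threshold 0.05, no filter on level). Simulated data were used to test the fit. The number of arrays limits the precision. Tables and figures were made in Python 3.11.15 with pandas 2.3.3 and matplotlib 3.10.9.

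Members and lists were chosen with earlier results of these data known. All members are named. Of other lists, genes past the threshold, or otherwise up to 2 with the smallest p, are named, besides Hif1a, Epas1, Vegfa, Ldhb, Itgam, Cd68, Nos2 and Arg1. Krt8, Krt18, Krt19, Cd14, Cd53 and Mpeg1 were chosen after their values were seen. Alternatives were a repeated quantile normalization, centring, a filter on level, another variance model, averaged clusters, symbols as deposited, a replicate block and leaving out each array.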

Additional observations from a re-analysis of the deposited data

How the results depend on the processing

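By limma, 0 members passed the adjusted threshold under each of the 13 alternatives (smallest adjusted p 0.453), and the 439 values of single members stayed on the same side of it. Signs are not settled: 12 of 34 members changed sign under at least 1 setting. The largest main value among them was that of Slc16a3, 0.16, which became -0.10 without PI replicate 1. The medians moved more than the spread between arrays in some settings. Centring gave -0.114 for glycolysis and -0.076 for HIF targets, averaging a gene's clusters gave -0.075 for HIF targets and a difference of -0.0002, and repeated quantile normalization gave a difference of -0.057. Leaving out 1 array gave glycolysis medians of -0.082 to -0.049, HIF target medians of -0.063 to -0.021, and differences of -0.061 to 0.0053, the last without PI replicate 3, where the order turned. Members whose arrays did not overlap then numbered 6 to 10, against 22.0% to 24.5% of all genes, since fewer arrays overlap less. Over all genes, calls numbered 17, but 42 among genes above the median level, 76 with an intensity trend and robust variance, 1 with the replicate block, and 1 to 14 when 1 array was left out (1 without PI replicate 2, 4 without PI replicate 3, 7 without AI replicate 1 or AI replicate 3); the cause was not tested. The replicate block called 0 members and left their differences as they were. Equal numbers are not said to mark a shared mouse. Deviations of same-numbered arrays correlated at 0.041, 0.006 and 0.057, and those of arrays with different numbers at -0.075 to 0.038. With 3 arrays per group, these values do not settle whether the replicates were paired. Background correction could not be varied, since only summarised values were used.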

Other observations

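Of 8 measured genes of the pentose phosphate pathway, which makes NADPH and ribose from glucose 6-phosphate, 6 had values below 0, with a median of -0.03, and by limma 0 passed the adjusted threshold and 0 an unadjusted p under 0.05. Rpia, the ribose phosphate isomerase, had levels of 6.25, 6.28 and 6.01 in PI and 6.35, 6.37 and 6.48 in AI, a difference of -0.22 with all PI arrays lower (limma adjusted p = 0.688). Rpe, the epimerase of the same branch, differed by -0.16 (limma adjusted p = 0.780). Of 6 genes of gluconeogenesis, 3 were below 0. By limma 0 passed the adjusted threshold, and 2 were higher at an unadjusted p under 0.05. Fbp1, a fructose bisphosphatase, had levels of 3.33, 3.19 and 3.28 in PI and 3.05, 3.15 and 2.85 in AI, a value of 0.25 (limma adjusted p = 0.662) at dim signal. G6pc, the liver glucose 6-phosphatase, had levels of 4.13, 4.07 and 4.13 in PI and 3.93, 3.90 and 3.93 in AI, a value of 0.19 (limma adjusted p = 0.658), also at dim signal. In both genes every PI array was above every AI array.

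Of the receptors that the labels call absent, Erbb2 had levels of 7.58, 7.95 and 7.80 in PI and 7.93, 7.96 and 7.91 in AI, and Esr1 had levels of 5.13, 5.81 and 5.22 in PI and 5.41, 5.17 and 4.95 in AI. Array levels of different genes share no scale, so these values do not say whether a receptor is expressed. Cd68, a lysosomal macrophage protein also made by other cells, differed by 0.03 (limma adjusted p = 0.957).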
